A study of Macaca fascicularis with 34 samples.

Results

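The transcriptomes of 6 single cells from cynomolgus monkey (Macaca fascicularis) embryos at embryonic day (E) 20 were compared in 2 sets, 3 streak-like cells with abundant T transcripts and 3 mesodermal cells with few. T, also called brachyury, is the T-box transcription factor of the primitive streak. The cells were chosen by their own measured values. Of the 8 E20 cells, those with NANOG below 150 RPM (reads scaled to the same total in every cell) were kept. Those with T at 1000 RPM or more are called streak-like, and those with T below 1000 RPM are called T-low. The 6 cells are part of 34 in the study, of which 25 came from embryos and 9 from male gonads. RNA of each cell was amplified as complementary DNA and read by SC3-seq, a method that sequences the 3' ends of transcripts. The labels give the subspecies fascicularis, the tissue as embryo and the stage for every E20 cell. They name no treatment, allele, sex, position in the embryo, cell type or animal. The titles of all 6 cells share the code MS08. Each set therefore counts as 1 sample whose cells may come from 1 embryo, and no difference between the sets was tested.

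The primitive streak is the strip at the rear of the embryo where epiblast cells turn into mesoderm and endoderm. WNT, FGF, NODAL and BMP ligands act there, and T, MIXL1 and EOMES are among the transcription factors they induce. Cells that leave the streak early form extraembryonic, lateral and blood vessel mesoderm, which is mesenchymal and uses HAND1, HAND2 and collagens. Cells that leave it later form presomitic mesoderm, the forerunner of the somites, which depends in the mouse on TBX6, MSGN1, WNT3A and FGF signalling. HOX genes are switched on in that region in the order of their position along each cluster.

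Throughout, values of single cells are in the order of E20 cells 2, 6 and 7 for the streak-like cells and of E20 cells 1, 3 and 4 for the T-low cells. T (gene 102121347 on chromosome 4 in the table) stood at 4381, 1656 and 3593 RPM in the streak-like cells, against 0.687, 194 and 10.5 RPM in the T-low cells. The means were 3209.9 ± 1402 RPM in the streak-like cells and 68.3 ± 109 RPM in the T-low cells (SD, n = 3 cells each). The streak-like cell nearest the limit of 1000 RPM was cell 6 with 1656 RPM, and the T-low cell nearest to it was cell 3 with 194 RPM. NANOG, a pluripotency and germ cell factor, was at 2.96, 0.681 and 0 RPM in the streak-like cells, against 0.687, 3.20 and 124 RPM in the T-low cells. Cell 4 with 124 RPM was the member nearest the limit of 150 RPM, and the nearest cell beyond it was cell 5, with 534 RPM of NANOG and 244 RPM of T. Cell 8, whose title carries the code MS09, was also left out, with 566 RPM of NANOG and 427 RPM of T. Because T and NANOG chose the cells, their values are a description, and so are those of every gene that moves with them in the same cells. Outside the 6 cells T was widespread at lower levels: 26 of the other 28 cells held at least 15 RPM, up to 931 RPM in E13 cell 2, and none reached the streak-like cells.

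The depth of the 6 cells, recovered from the commonest low value taken as 1 read, ran from 1072324 to 1564392 reads. At least 1 read was seen for 9254, 10922 and 10243 genes in the streak-like cells, against 13235, 11779 and 11005 genes in the T-low cells. The order was the same after thinning every cell to 1072324 reads, with 8982, 10608 and 10243 genes in the streak-like cells, against 12951, 11442 and 10799 genes in the T-low cells. Some transcripts of immediate-early and stress genes also differed between the sets, with 4 of 18 measured list genes lower in streak-like cells and 0 higher. FOS stood at 112, 113 and 13.1 RPM in the streak-like cells, against 601, 191 and 619.8 RPM in the T-low cells, and ATF3 at 0.739, 0 and 0 RPM in the streak-like cells, against 131, 9.59 and 169 RPM in the T-low cells. For the 25 stress and RNA quality genes with a read, the mean log2(RPM + 1) was higher in the T-low cells. It was 3.63, 3.94 and 3.54 in the streak-like cells, against 5.51, 4.34 and 5.70 in the T-low cells. Summed RPM over the list ran the other way, at 6238, 6028 and 5620 in the streak-like cells, against 4431, 5596 and 5000 in the T-low cells. The median difference of the list, -1.56, was 0.26 over members averaging at least 50 RPM. Reference genes stayed close, with a mean of 8.53, 8.85 and 8.67 over 15 genes in the streak-like cells, against 8.85, 8.82 and 8.70 in the T-low cells. The part of gene number and stress in the differences below was not tested.

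Genes that averaged 10 RPM or more over the 6 cells are called measured. A gene counted as higher or lower where the mean log2(RPM + 1) of the sets differed by at least 2 (4-fold) and no cell of 1 set lay among the other. Of 9190 measured genes, 216 (2.35%) were higher in streak-like cells and 755 (8.22%) were lower. Since T selected the cells, these counts describe the contrast and are not evidence for it. The median difference over all measured genes was -0.36 on the log2 scale, and 38.5% of the genes had a positive one. Scaling the cells to an equal median of shared genes put it at -0.54. With 2 cells in a set the sets overlap less easily: leaving out streak-like cell 2, 6 or 7 gave 420, 386 and 486 higher genes, leaving out T-low cell 3 gave 326, and leaving out streak-like cell 6 gave 1530 lower genes. Without cell 6, 200 of the 216 higher and 738 of the 755 lower genes were still called. Sets that do not overlap stay apart when a cell is left out. With a T limit of 2000 RPM, which moves cell 6 to the T-low set, 73 of the 216 higher and 269 of the 755 lower genes were still called.

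Presomitic and streak genes were in part higher in the streak-like cells. MSGN1 had the largest difference among the higher genes that met the minimum levels given below. MSGN1, a basic helix-loop-helix factor of the presomitic mesoderm (gene 102143680 on chromosome 13 in the table), was measured at 1414, 619 and 1471 RPM in the streak-like cells, against 0, 0 and 0 RPM in the T-low cells. Its mean was 1168 ± 476 RPM (SD, n = 3 cells). With reads pooled over the streak-like cells its level was 1130 RPM, at least 1638-fold higher than 3 reads over the T-low cells would give. TBX6, the T-box factor that commits cells to the presomitic mesoderm in the mouse, stood at 63.5, 14.98 and 62.5 RPM in the streak-like cells, against 0, 4.47 and 0 RPM in the T-low cells. It was lower in cell 6 than in the other two streak-like cells, yet above all T-low cells. SP8, a zinc finger factor of the tail end of the embryo, was at 307, 431 and 455 RPM in the streak-like cells, against 0, 0.639 and 0 RPM in the T-low cells, which leaves 1 of the T-low cells with a single read.

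**Figure D1:**
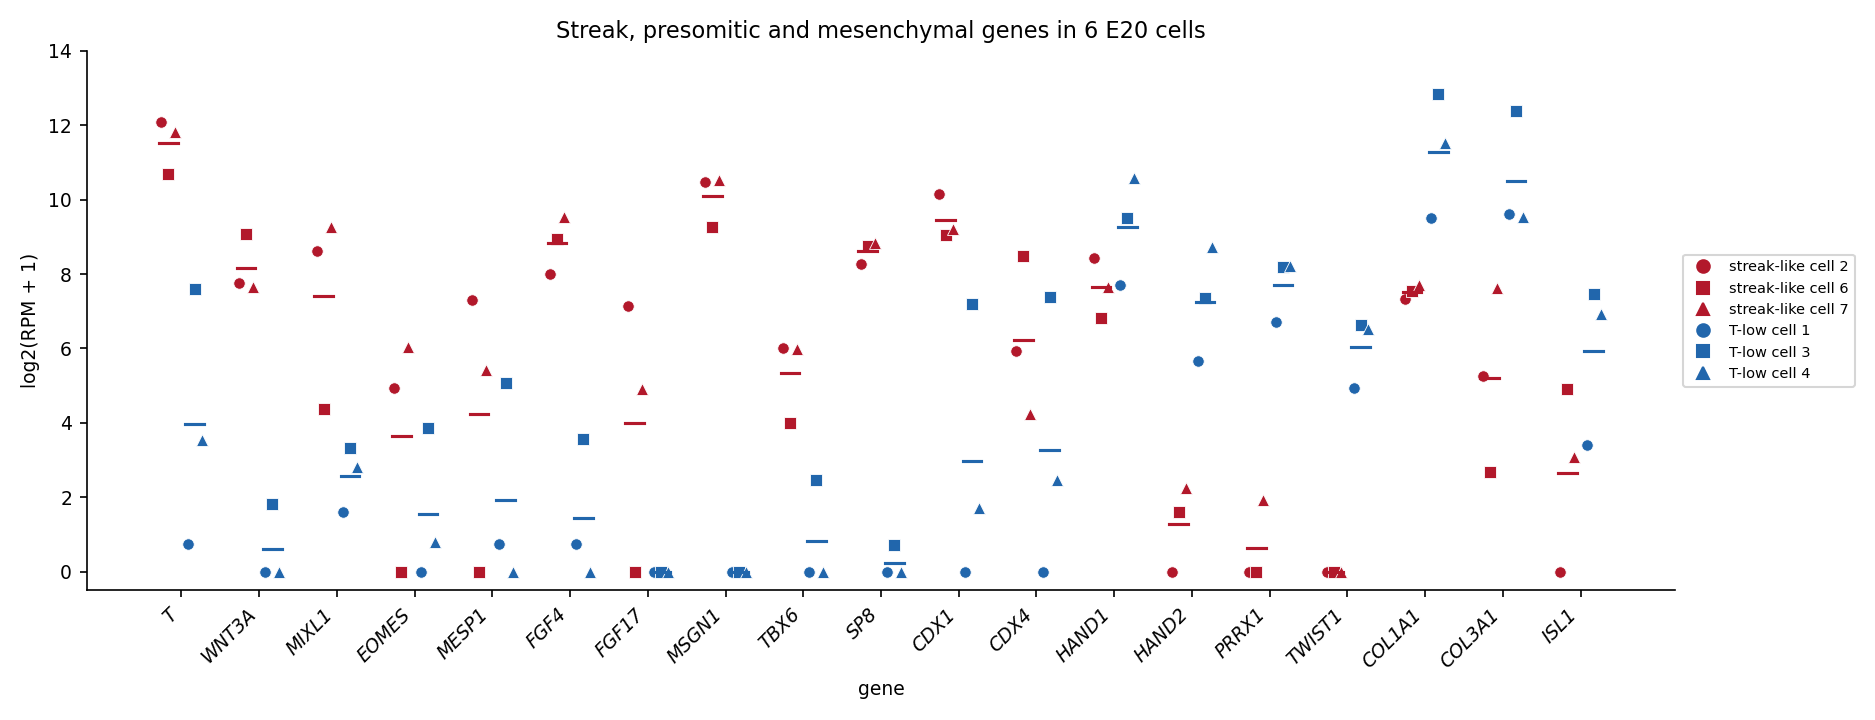
Levels of 19 genes in the 6 E20 cells as log2(RPM + 1), with 1 point per cell and a bar at the mean of each set. The 3 streak-like cells (red) lie above the 3 T-low cells (blue) for T, which chose them, and for WNT3A, MIXL1, FGF4, MSGN1, TBX6, SP8 and CDX1, and below them for HAND2, PRRX1, TWIST1, COL1A1 and COL3A1, while HAND1, ISL1, EOMES, MESP1 and CDX4 overlap.

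Of the 12 measured genes of the primitive streak list, 5 (41.7%) were higher in streak-like cells (T, MIXL1, EVX1, FGF4 and WNT3A). The lower gene (8.33%) was TDGF1, the NODAL co-receptor. The median log2 difference was 3.52, and the shares over all measured genes were 2.35% higher and 8.22% lower. Without T, which chose the cells, 4 of 11 were higher and 1 was lower, with a median of 3.44. Of the 21 genes of the list other than T, 10, 6 and 10 reached 15 RPM in the streak-like cells, against 1, 4 and 3 in the T-low cells. MIXL1, a homeobox factor of streak mesendoderm, stood at 395, 19.7 and 611 RPM in the streak-like cells, against 2.06, 8.95 and 6.02 RPM in the T-low cells. EVX1, a homeobox factor of the rear streak, was measured at 220.2, 583 and 267 RPM in the streak-like cells, against 11.7, 160.4 and 107 RPM in the T-low cells, with T-low cells 3 and 4 well above cell 1. TDGF1 stood at 4.43, 1.36 and 0.933 RPM in the streak-like cells, against 7.56, 9.59 and 46.6 RPM in the T-low cells. Other genes of the streak were near 0 in these cells: GSC and LEFTY2 had no read in any of the 6 cells, so that levels of up to 0.770 RPM in the streak-like cells and 0.690 RPM in the T-low cells could have gone unseen. NODAL and LHX1 had no read in the streak-like cells. FGF8, a ligand essential for cells to leave the streak in the mouse, had 0, 4.77 and 0.933 RPM in the streak-like cells, against no read in the T-low cells.

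In the presomitic list, 6 of 14 measured genes (42.9%) were higher and 0 lower, beside 2.35% and 8.22% of all measured genes. The median difference was 3.20, against -0.36 over all genes. Beside MSGN1 and TBX6 the higher genes were NKD1, HOXB1, PCDH8 and EPHA4. PCDH8, the paraxial protocadherin of cell adhesion, was at 436, 420.0 and 89.5 RPM in the streak-like cells, against 0, 0 and 0 RPM in the T-low cells. EPHA4, an ephrin receptor that sets somite borders, stood at 205, 73.5 and 271 RPM in the streak-like cells, against 0, 0 and 0 RPM in the T-low cells. Both had no read in any T-low cell. Several other genes of later steps, which pattern and segment somites, were not detected or low. MEOX2, PAX3, RIPPLY1 and RIPPLY2 had no read in any of the 6 cells, and MEOX1 and HES7 stayed under 5 RPM. A member passes the limit of 10 RPM more easily when 1 set is high, so these counts cover measured members, not all 22 in the list. Outside E20, E16 cell 8 and E17 cell 2 were as high as the streak-like cells in the mean of the streak list without T, with 4.24, 2.88 and 4.06 on the log2(RPM + 1) scale in the streak-like cells, against 4.37 in E16 cell 8 and 4.08 in E17 cell 2. In the presomitic list they were lower, with 4.85, 4.51 and 4.97 in the streak-like cells, against 3.93 in E16 cell 8 and 1.73 in E17 cell 2. E16 cell 8 was also high in endoderm genes, with a list mean of 1.41, 2.56 and 2.32 in the streak-like cells, against 6.65 in that cell.

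The caudal epiblast list gave 4 higher (33.3%) and 0 lower of 12 measured genes, beside 2.35% and 8.22% of all measured genes. Its median difference of 1.83 was 0.91 without T-low cell 1, 3.18 without T-low cell 3 and 0.52 with cell 6 moved to the T-low set. CDX1, a homeobox factor that acts upstream of HOX genes, was measured at 1133, 525 and 587 RPM in the streak-like cells, against 0, 146 and 2.26 RPM in the T-low cells, a ratio of mean RPM of 15.2. T-low cell 3 held part of this group: its list mean was 5.38 on the log2(RPM + 1) scale, within reach of 5.44, 6.21 and 5.42 in the streak-like cells, against 2.52 in T-low cell 1 and 3.71 in T-low cell 4. CDX4 and CDX2 overlapped through T-low cell 3 and, for CDX2, through T-low cell 4 as well. CDX4 stood at 60.6, 357 and 17.7 RPM in the streak-like cells, against 0, 167 and 4.51 RPM in the T-low cells, and CDX2 at 79.05, 213 and 20.5 RPM in the streak-like cells, against 3.44, 109 and 45.1 RPM in the T-low cells. SOX2, which marks epiblast and neural progenitors, was near 0 in all 6, with 3.69, 4.08 and 0 RPM in the streak-like cells, against 0.687, 0 and 0.752 RPM in the T-low cells.

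WNT genes differed by role. Among ligands, WNT3A, which keeps the presomitic progenitors going in the mouse (chromosome 1 in the table), was at 214, 541 and 199 RPM in the streak-like cells, against 0, 2.56 and 0 RPM in the T-low cells, a ratio of mean RPM of 373. All 3 streak-like cells held it, with cell 6 highest, and the T-low cells had next to none. WNT5B stood at 230.5, 316 and 228 RPM in the streak-like cells, against 0.687, 51.8 and 27.1 RPM in the T-low cells. WNT5A, a ligand of cell movement, overlapped, with 554, 932 and 491 RPM in the streak-like cells, against 43.99, 569 and 691 RPM in the T-low cells. WNT3, which starts the streak in the mouse, was at most 8.39 RPM in any of the 6 cells.

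RSPO3, a secreted booster of WNT signalling, was measured at 417, 192 and 324 RPM in the streak-like cells, against 11.7, 113 and 4.51 RPM in the T-low cells. Its paralog RSPO2 lay the other way, with 0, 0 and 0.933 RPM in the streak-like cells, against 52.2, 38.4 and 109 RPM in the T-low cells. The ligand WNT2 was not on the list and ranked second among the lower genes, with 0, 0 and 1.87 RPM in the streak-like cells, against 102, 198 and 409 RPM in the T-low cells. The 2 sets thus each had an R-spondin at a higher level, and not the same one.

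Several feedback targets of WNT signalling were higher in streak-like cells. AXIN2, which promotes destruction of beta-catenin, stood at 366, 342 and 441 RPM in the streak-like cells, against 25.4, 279 and 8.27 RPM in the T-low cells, so that T-low cell 3 came close to the streak-like cells. DKK1, a secreted WNT antagonist, was at 1370.4, 133 and 269 RPM in the streak-like cells, against 0, 9.59 and 0 RPM in the T-low cells. It was far higher in cell 2 than in cells 6 and 7, and near 0 in the T-low set. NKD1, an inhibitor inside the cell, stood at 397, 75.6 and 125 RPM in the streak-like cells, against 2.75, 42.8 and 0 RPM in the T-low cells. SP5, a direct target, overlapped, with 216, 341 and 39.2 RPM in the streak-like cells, against 10.997, 194 and 0 RPM in the T-low cells. The frizzled receptors FZD1, FZD2, FZD3, FZD4, FZD7, FZD8 and FZD10 were measured, and all 7 overlapped between the sets. In all, 6 of 26 measured WNT pathway genes (23.1%) were higher and 2 (7.69%, TCF7L2 and RSPO2) lower, beside 2.35% and 8.22% of all measured genes. The median difference of 0.49 over the WNT pathway genes was unsteady. It was 2.05 with the NANOG-high cells counted as T-low, 2.53 over genes averaging at least 50 RPM, and 0.20 to 1.03 with 1 cell left out.

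FGF genes had the largest share of higher members among the WNT, FGF, BMP, NODAL, Notch and retinoic acid lists. Of 21 measured, 7 (33.3%) were higher and 0 lower, beside 2.35% and 8.22% of all measured genes. The median difference was 1.29. FGF4, a ligand of the streak, was measured at 255, 495 and 738 RPM in the streak-like cells, against 0.687, 10.9 and 0 RPM in the T-low cells, and it had no read in any of the 28 cells outside the 2 sets. FGF2, another ligand, stood at 63.5, 28.6 and 23.3 RPM in the streak-like cells, against 0.687, 9.59 and 0 RPM in the T-low cells. Neither ligand overlapped between the sets. Some genes that respond to FGF were also higher. ETV4, a transcription factor that FGF induces, was at 337, 201 and 252 RPM in the streak-like cells, against 18.6, 26.8 and 0 RPM in the T-low cells. The inhibitors DUSP6, SPRY4 and IL17RD stood in the streak-like cells at 369, 709 and 678 RPM for DUSP6, 85.7, 70.8 and 73.7 RPM for SPRY4 and 90.1, 362 and 233 RPM for IL17RD. In the T-low cells they stood at 323, 88.9 and 84.2 RPM, 35.7, 17.9 and 7.52 RPM and 24.7, 24.9 and 0 RPM in the same order of genes. For each of these genes every streak-like cell lay above every T-low cell. FLRT3, a membrane protein that FGF induces in the frog, was measured at 11.8, 65.4 and 164 RPM in the streak-like cells, against 0, 0 and 0 RPM in the T-low cells. The receptor FGFR1 overlapped, with 129, 438 and 204 RPM in the streak-like cells, against 146, 83.1 and 74.5 RPM in the T-low cells. Related genes of the same list, SPRY1, SPRY2, SPRED1, SPRED2, DUSP4, DUSP5, ETV1 and ETV5, were not called higher.

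Of 26 measured BMP genes, 1 was higher and 2 were lower, shares of 3.85% and 7.69% that lie near the 2.35% and 8.22% of all measured genes. Their median difference was 1.09, and 0.48 without T-low cell 4. The higher gene was FST (follistatin), a secreted trap for activin, at 434, 360.1 and 1078 RPM in the streak-like cells, against 4.81, 99.7 and 27.1 RPM in the T-low cells. The lower genes were the ligand BMP5, at 0, 3.40 and 3.73 RPM in the streak-like cells, against 6.87, 81.8 and 58.7 RPM in the T-low cells, and FSTL1, at 95.3, 53.8 and 158 RPM in the streak-like cells, against 475, 372 and 417 RPM in the T-low cells. BMP4, a ligand that induces mesoderm and amnion, was higher in every streak-like cell, with 323, 341 and 177 RPM in the streak-like cells, against 17.9, 130.4 and 150.4 RPM in the T-low cells, but its log2 difference of 1.91 was under the limit of 2. ID1, ID2 and ID3, targets of BMP, overlapped or stayed under that limit.

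In the NODAL pathway, 1 of 8 measured genes was higher (FOXH1) and 1 was lower (TDGF1, given above). FOXH1, the DNA-binding partner of SMAD2 and SMAD3, stood at 844, 536 and 454 RPM in the streak-like cells, against 0.687, 22.4 and 60.2 RPM in the T-low cells. The receptors and SMADs overlapped. Genes of retinoic acid, the signal that matures somites, gave 2 higher (22.2%) and 0 lower of 9 measured. CRABP2, which carries retinoic acid to its receptors, was at 847, 501 and 813 RPM in the streak-like cells, against 23.4, 421 and 218 RPM in the T-low cells, so that no T-low cell reached the streak-like cells. ALDH1A2, which makes retinoic acid, was seen in streak-like cells 2 and 7 alone, with 339.8, 0 and 63.4 RPM in the streak-like cells, against no read in the T-low cells.

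The 15 genes with the largest positive difference that met minimum levels (a mean of 50 RPM and 15 RPM in each streak-like cell) included MSGN1, SP8, PCDH8, T, WNT3A, FGF4, DKK1, EPHA4, ZIC2, CACHD1, CDX1, NFASC, HOXB1 and SALL3. ZIC2, a zinc finger factor of gastrulation, stood at 220.2, 42.2 and 403 RPM in the streak-like cells, against 0, 0.639 and 0 RPM in the T-low cells. CACHD1, a membrane protein with a calcium channel domain, was measured at 799, 402 and 627 RPM in the streak-like cells, against 35.7, 2.56 and 0 RPM in the T-low cells. NFASC (neurofascin), an adhesion molecule of axons, stood at 124, 25.9 and 159 RPM in the streak-like cells, against 0, 0 and 0 RPM in the T-low cells. SALL3, a zinc finger factor, was at 242, 263 and 144 RPM in the streak-like cells, against 0, 29.4 and 0 RPM in the T-low cells. T-low cell 3 was the T-low cell with the most SALL3, and T-low cell 1 the one with the most CACHD1.

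For 12 of the 15 genes, T among them, all 3 streak-like cells lay above each of the 28 other cells of the study. The exceptions were EPHA4, ZIC2 and NFASC. For 9 of the 15 the highest cell outside was E16 cell 8, as for SP8 with 82.8 RPM, CACHD1 with 102 RPM and EPHA4 with 125 RPM. The nearest cell outside thus held a fraction of the streak-like level for SP8 and CACHD1, and lay among the streak-like cells for EPHA4.

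The called HOX genes split by paralog group, a grouping by position in the cluster that was not one of the lists. In groups 1 to 3, 4 of 7 measured genes were higher in streak-like cells and 0 lower, with a median difference of 3.96. The higher genes included HOXA2, HOXA3 and HOXB1. HOXA2 stood at 119, 259 and 182 RPM in the streak-like cells, against 0, 65.2 and 21.8 RPM in the T-low cells, HOXA3 at 58.4, 66.04 and 141 RPM in the streak-like cells, against 4.81, 2.56 and 0 RPM in the T-low cells and HOXB1 at 199, 72.2 and 50.4 RPM in the streak-like cells, against 0, 1.28 and 0 RPM in the T-low cells. T-low cell 3 held more HOXA2 than T-low cells 1 and 4, without reaching the streak-like cells.

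Groups 9 to 13 were the other way round, with 4 lower and 0 higher of 5 measured genes and a median difference of -5.28. All 4 lower genes belong to the HOXA cluster. The table holds 16 genes of these groups, and a gene that is high in the T-low cells passes the limit of 10 RPM more easily. Their summed level was 75.4, 90.5 and 15.9 RPM in the streak-like cells, against 267, 175 and 457 RPM in the T-low cells. HOXA10 was measured at 0, 0 and 0 RPM in the streak-like cells, against 98.98, 35.2 and 159 RPM in the T-low cells, HOXA9 at 0, 0 and 1.87 RPM in the streak-like cells, against 52.9, 38.4 and 107 RPM in the T-low cells, HOXA11 at 0, 0 and 0 RPM in the streak-like cells, against 33.7, 7.67 and 49.6 RPM in the T-low cells and HOXA13 at 0, 0 and 0.933 RPM in the streak-like cells, against 37.1, 23.7 and 119 RPM in the T-low cells. HOXA10 and HOXA11 had no read in any streak-like cell. HOXB9 did not share the pattern, with 70.2, 27.9 and 0 RPM in the streak-like cells, against 37.8, 5.11 and 3.01 RPM in the T-low cells. Groups 4 to 8 lay between, with 0 higher and 2 lower (HOXB6 and HOXC6) of 8 measured genes and a median difference of -1.37. HOXA10 and HOXA13 were also present in NANOG-high E20 cell 5, at 119.7 and 85.1 RPM.

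**Figure D2:**
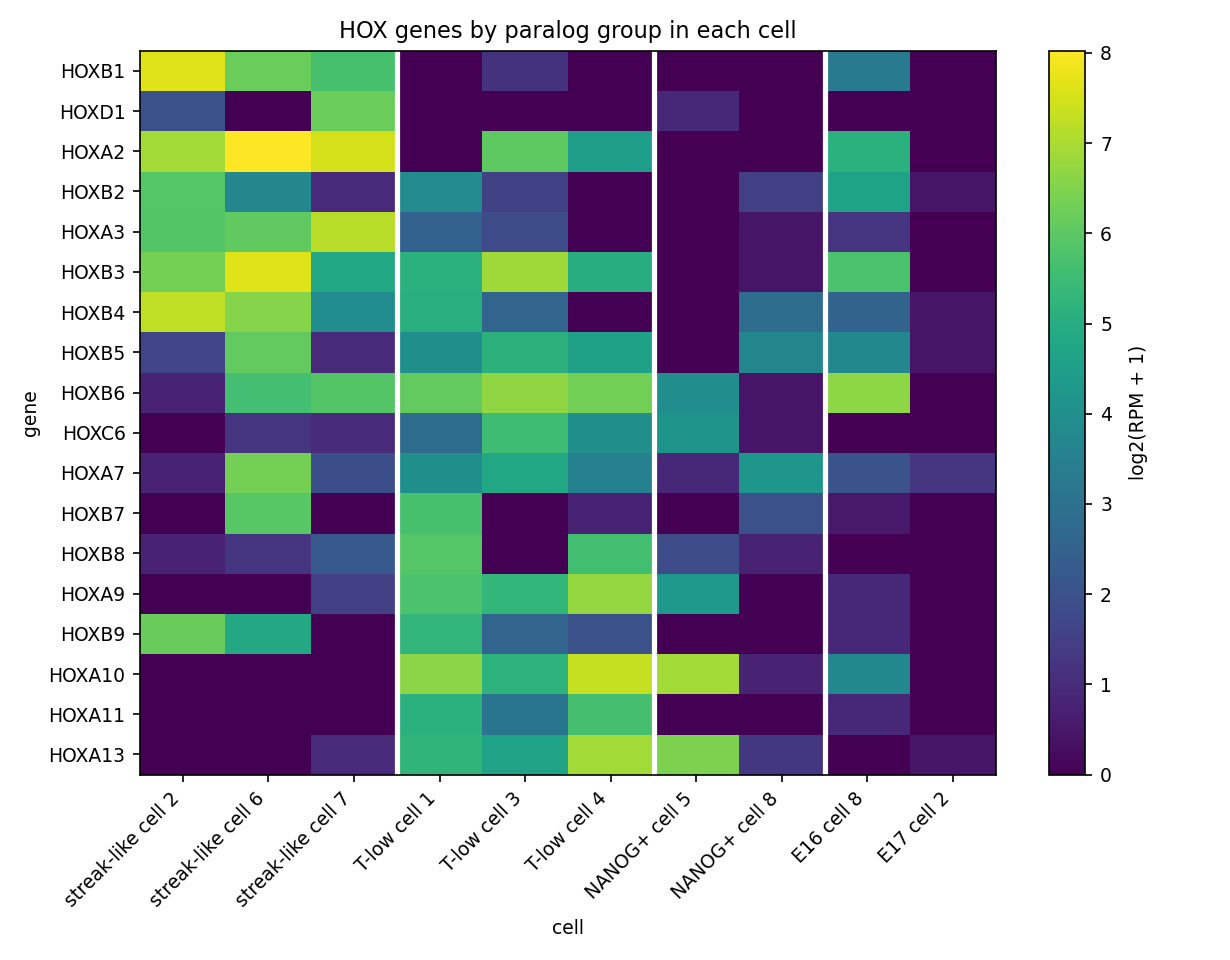
Levels of 18 HOX genes (rows, from paralog group 1 at the top to 13 at the bottom) in the 3 streak-like, 3 T-low and 2 NANOG-high (NANOG+) E20 cells and in E16 cell 8 and E17 cell 2, as colour on a log2(RPM + 1) scale. HOXA2, HOXA3 and HOXB1 are brighter in the streak-like cells than in the T-low cells, and HOXA9, HOXA10, HOXA11 and HOXA13 the other way round.

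By correlation, the streak-like cells differed among themselves about as much as they differed from the T-low cells. Over 9188 measured genes, with T and NANOG left out, Pearson correlations of log2(RPM + 1) ran from 0.44 to 0.47 in the 3 pairs of streak-like cells. They ran from 0.43 to 0.49 in the 9 pairs between the sets and from 0.57 to 0.62 in the 3 pairs of T-low cells. Every one of the 6 cells correlated more with E16 cell 8, which had reads for 15700 genes, than with any other of the 6. Those values were 0.56, 0.61 and 0.55 for the streak-like cells and 0.67, 0.65 and 0.66 for the T-low cells. The part of gene number in the correlations was not tested. These correlations are across genes within pairs of cells, share the general expression level of each gene, and come from cells that also differed in the number of genes with a read.

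Some streak genes that cells 2 and 7 held were missing from cell 6, a set chosen after the values were seen. Over all measured genes cell 6 was not the odd one out: its correlations were 0.47 with cell 2 and 0.46 with cell 7, against 0.44 between cells 2 and 7. It had no read of EOMES, MESP1, MESP2, FGF17, GBX2 or ALDH1A2. EOMES, the T-box factor of mesendoderm, stood at 29.6, 0 and 64.3 RPM in the streak-like cells, against 0, 13.4 and 0.752 RPM in the T-low cells. MESP1, the factor of early mesoderm leaving the streak, was at 156, 0 and 41.96 RPM in the streak-like cells, against 0.687, 32.6 and 0 RPM in the T-low cells. FGF17, a ligand of the streak, stood at 139, 0 and 28.9 RPM in the streak-like cells, against no read in the T-low cells. MIXL1 was also at its lowest there, with 19.7 RPM.

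The same cell held more of CDX4, with 357 RPM against 60.6 and 17.7 RPM in cells 2 and 7, and the highest WNT3A of the 3. Some epithelial genes were highest of the 3 in it, while EPCAM, given below, was lowest in it. CDH1 (E-cadherin) was measured at 1.48, 92.6 and 19.6 RPM in the streak-like cells, against 0, 51.1 and 0 RPM in the T-low cells. TFAP2A, a factor of surface ectoderm and amnion, stood at 0, 95.99 and 8.39 RPM in the streak-like cells, against 0.687, 93.97 and 0 RPM in the T-low cells. The keratin KRT23 was at 201 RPM in cell 6, with no read in cells 2 and 7, and the tight junction gene OCLN at 175 RPM in cell 6, against at most 15.98 RPM in the other 5 cells. Of the 22 amnion genes with a read, 14 reached 15 RPM in cell 6, against 7 in cell 2 and 9 in cell 7. Over all genes, 6975 reached 15 RPM in cell 6, against 5566 in cell 2 and 5504 in cell 7. The amnion list shares HAND1, TBX3 and BMP4 with the lateral list.

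Cell 2 held 32 genes at 100 RPM or more and at least 8-fold over every other cell of the 6, against 8 in cell 6 and 17 in cell 7. They included NTRK3, a neurotrophin receptor, at 253 RPM, and EFNA3, an ephrin ligand, at 143 RPM. In cell 7 they included PCSK1, a proprotein convertase, at 116 RPM with no read in the other 5 cells. FOXC1, a forkhead factor of paraxial mesoderm, was seen in cell 7 alone of the streak-like cells and stood at 0, 0 and 146 RPM in the streak-like cells, against 68.05, 0 and 0 RPM in the T-low cells.

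**Figure D3:**
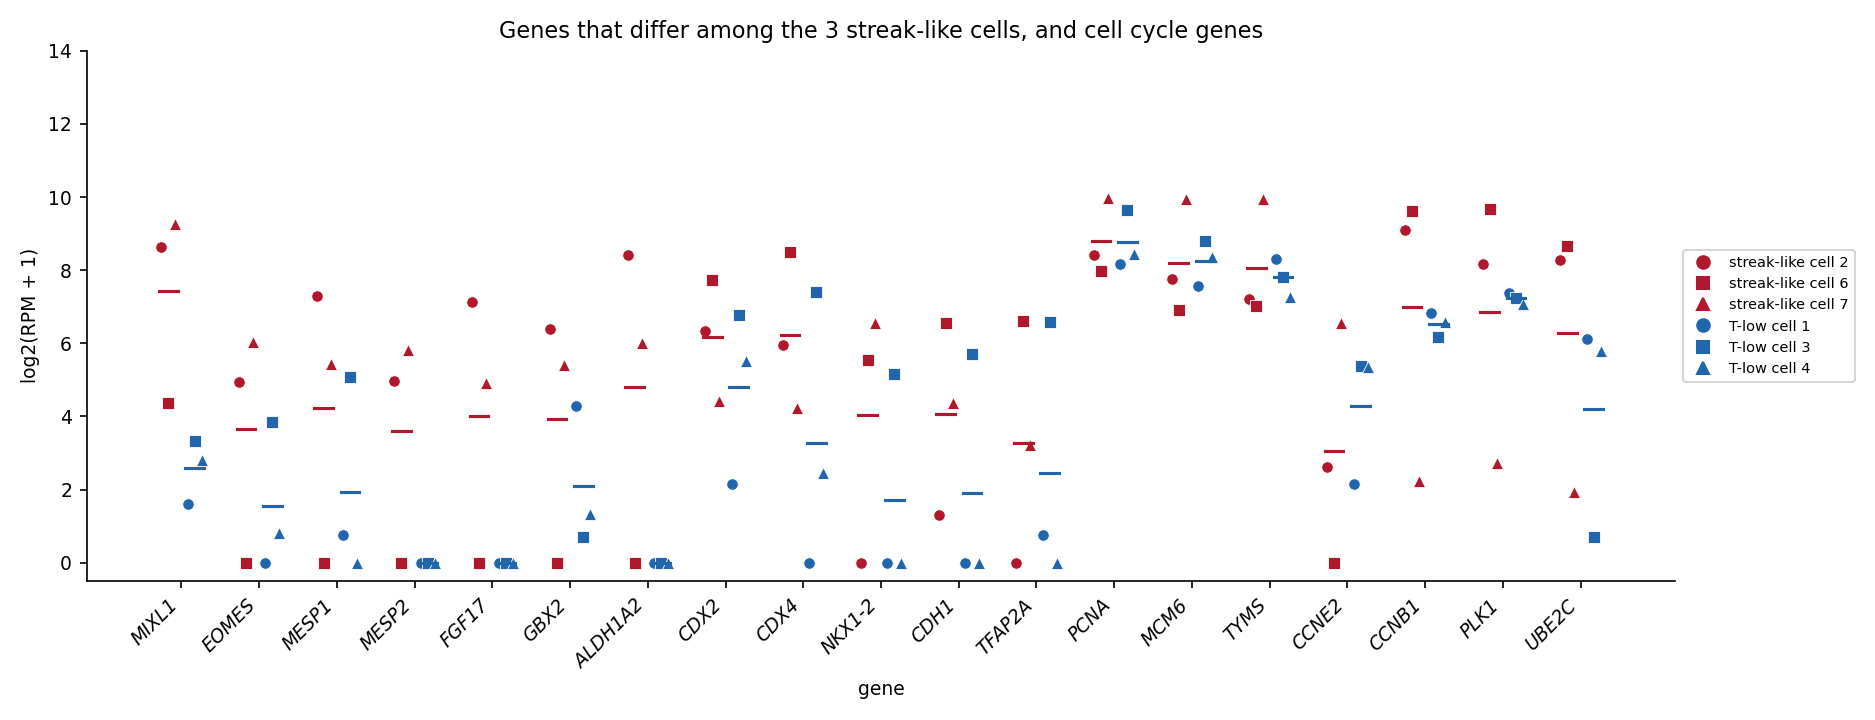
Levels of 19 genes in the 6 cells as log2(RPM + 1), with 1 point per cell and a bar at the mean of each set. Streak-like cell 6 (red square) is at 0 for EOMES, MESP1, MESP2, FGF17, GBX2 and ALDH1A2 and highest of the 3 for CDX2, CDX4, CDH1 and TFAP2A, and streak-like cell 7 (red triangle) is highest for PCNA, MCM6, TYMS and CCNE2 and lowest for CCNB1, PLK1 and UBE2C.

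Cell cycle genes varied between cells rather than sets. Of 30 measured proliferation genes, 0 were higher and 1 (3.33%, E2F1) was lower, beside 2.35% and 8.22% of all measured genes. The median difference was 0.16, which became -0.02 under scaling to an equal median. CCNB1, the cyclin of mitotic entry, was measured at 549, 784 and 3.73 RPM in the streak-like cells, against 113, 71.6 and 95.5 RPM in the T-low cells, and PLK1, a mitotic kinase, at 289, 818 and 5.60 RPM in the streak-like cells, against 165, 149.6 and 135 RPM in the T-low cells. Cell 7 was thus low in mitotic genes. It was high in genes of DNA synthesis, with PCNA, the polymerase clamp, at 342, 251 and 999.7 RPM in the streak-like cells, against 287, 801 and 349.8 RPM in the T-low cells, and TYMS, which makes thymidylate, at 147, 129 and 988 RPM in the streak-like cells, against 317, 225 and 154 RPM in the T-low cells. Cells 2 and 6 were at least as high as any T-low cell for CCNB1, PLK1 and UBE2C.

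The T-low cells carried genes of lateral mesenchyme. In the list of lateral and extraembryonic mesoderm, 14 of 23 measured genes (60.9%) were lower in streak-like cells and 0 higher. The median difference was -4.20, and 8.22% of all measured genes were lower. PRRX1, a homeobox factor of limb and lateral mesenchyme, stood at 0, 0 and 2.80 RPM in the streak-like cells, against 103, 289.6 and 297 RPM in the T-low cells. TWIST1, a mesenchymal helix-loop-helix factor, was at 0, 0 and 0 RPM in the streak-like cells, against 29.6, 97.8 and 91.8 RPM in the T-low cells. HAND2, a factor of lateral and cardiac mesoderm, stood at 0, 2.04 and 3.73 RPM in the streak-like cells, against 49.5, 164 and 419.7 RPM in the T-low cells, and SNAI2, a repressor of E-cadherin, at 0, 23.8 and 11.2 RPM in the streak-like cells, against 94.9, 289 and 357 RPM in the T-low cells. T-low cells 3 and 4 exceeded cell 1 for each of these 4 genes.

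HAND1, a helix-loop-helix factor of lateral and extraembryonic mesoderm used as a label for the T-low cells, did not separate the sets. HAND1 was measured at 347, 112 and 199.6 RPM in the streak-like cells, against 209, 728 and 1533 RPM in the T-low cells, so that T-low cell 1 lay within the streak-like range, and its log2 difference was -1.63. ISL1, a LIM homeobox factor of amnion and second heart field, stood at 0, 29.3 and 7.46 RPM in the streak-like cells, against 9.62, 177 and 119.6 RPM in the T-low cells and overlapped as well. FOXF1 and GATA6, factors of lateral and extraembryonic mesoderm, overlapped through streak-like cell 6. FOXF1 was at 3.69, 72.8 and 1.87 RPM in the streak-like cells, against 8.94, 66.5 and 55.7 RPM in the T-low cells, and GATA6 at 0.739, 43.6 and 1.87 RPM in the streak-like cells, against 51.6, 37.7 and 208 RPM in the T-low cells. PDGFRA, the receptor of early mesoderm, stood at 91.6, 93.3 and 123 RPM in the streak-like cells, against 32.99, 236 and 171 RPM in the T-low cells.

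Of 6 measured cardiac progenitor genes, 2 were lower (33.3%, HCN4 and HOPX) and 0 higher, beside 8.22% and 2.35% of all measured genes. The defining heart genes NKX2-5, TBX5, TNNT2, MYH6 and MYH7 had no read in any of the 6 cells.

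Matrix genes gave the largest number of lower genes of the 24 lists. Of 33 measured, 18 (54.5%) were lower in streak-like cells and 0 higher, beside 8.22% and 2.35% of all measured genes. The median difference was -2.97. COL1A1, the main chain of type I collagen (chromosome 16), was measured at 159, 187 and 207 RPM in the streak-like cells, against 722, 7363 and 2940.2 RPM in the T-low cells. Its mean was 184 ± 24.2 RPM in the streak-like cells and 3675 ± 3381 RPM in the T-low cells (SD, n = 3 cells each), a ratio of 19.96 for T-low over streak-like cells. COL3A1 stood at 37.7, 5.45 and 197 RPM in the streak-like cells, against 776, 5332 and 743 RPM in the T-low cells, and COL6A1 at 57.6, 4.08 and 147 RPM in the streak-like cells, against 731, 1752 and 1243 RPM in the T-low cells. Streak-like cell 7 held more COL3A1 and COL6A1 than cells 2 and 6.

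The basement membrane linkers nidogen 1 and 2 were lower by a wider margin than the collagens. NID1 was at 1.48, 0 and 5.60 RPM in the streak-like cells, against 648, 154 and 139.9 RPM in the T-low cells, and NID2 at 5.17, 1.36 and 47.6 RPM in the streak-like cells, against 416, 1010.0 and 505 RPM in the T-low cells. LAMC1, a laminin chain, stood at 0.739, 19.1 and 14.9 RPM in the streak-like cells, against 162, 145 and 98.5 RPM in the T-low cells. FN1 (fibronectin) was lower in each streak-like cell, with 318, 622 and 580.0 RPM in the streak-like cells, against 1020.0, 4234 and 1385 RPM in the T-low cells, but its difference of -1.90 was under the limit. Summed over the list, matrix transcripts took 1868, 2582 and 2306 RPM in the streak-like cells, against 12996, 31657 and 13097 RPM in the T-low cells.

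Among measured genes of the epithelial to mesenchymal transition, 2 of 23 (8.70%) were higher and 6 (26.1%) lower. Over all measured genes the shares were 2.35% and 8.22%. The higher genes were CDH2 (N-cadherin), with 305, 483 and 126 RPM in the streak-like cells, against 17.2, 111 and 109 RPM in the T-low cells, and CLDN6, an embryonic tight junction claudin, with 330.2, 347 and 296 RPM in the streak-like cells, against 21.3, 209 and 54.9 RPM in the T-low cells. The repressors ZEB1 and ZEB2 were lower. ZEB1 was measured at 0.739, 0 and 2.80 RPM in the streak-like cells, against 158, 24.9 and 15.8 RPM in the T-low cells, and ZEB2 at 0, 0 and 5.60 RPM in the streak-like cells, against 79.04, 100.4 and 57.9 RPM in the T-low cells. SNAI1, which acts at the streak, overlapped, with 131, 59.2 and 29.8 RPM in the streak-like cells, against 30.2, 17.9 and 26.3 RPM in the T-low cells. EPCAM, an epithelial adhesion molecule, was kept in T-low cell 3, with 249, 225 and 332 RPM in the streak-like cells, against 3.44, 242 and 11.3 RPM in the T-low cells.

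The 15 genes with the largest negative difference under the same minimum levels were IGFBP3, WNT2, PRRX1, NID1, ADAMTS12, OLFML3, HGF, EDIL3, HOXA10, TEK, EFNB2, ZNF521, SLC7A2, NID2 and TWIST1. IGFBP3, which binds insulin-like growth factors, stood at 0, 2.04 and 40.1 RPM in the streak-like cells, against 636, 1374 and 589.7 RPM in the T-low cells. HGF, the ligand of the MET receptor, was at 0, 0 and 0.933 RPM in the streak-like cells, against 102, 132 and 84.99 RPM in the T-low cells. Streak-like cell 7 had some IGFBP3, and cells 2 and 6 had nearly none. EFNB2, an ephrin ligand of arteries and somite borders, stood at 0, 0 and 37.3 RPM in the streak-like cells, against 304, 259.5 and 233 RPM in the T-low cells. ADAMTS12, a matrix protease, had no read in any streak-like cell. Its level with reads pooled over the T-low cells was at least 119-fold higher than 3 reads over the streak-like cells would give.

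For 4 of these 15 genes (NID1, EFNB2, NID2 and TWIST1) all 3 T-low cells lay above each of the 28 other cells of the study. NANOG-high E20 cell 5 was the highest outside cell for 8 of the 15, as for IGFBP3 with 727 RPM and HGF with 335 RPM. The same cell held 2777 RPM of COL1A1 and 234 RPM of PRRX1, and a mean of 4.41 on the log2(RPM + 1) scale over the lateral list. It had 0.843 RPM of MSGN1. With both NANOG-high cells counted as T-low, 247 genes were lower in place of 755.

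**Figure D4:**
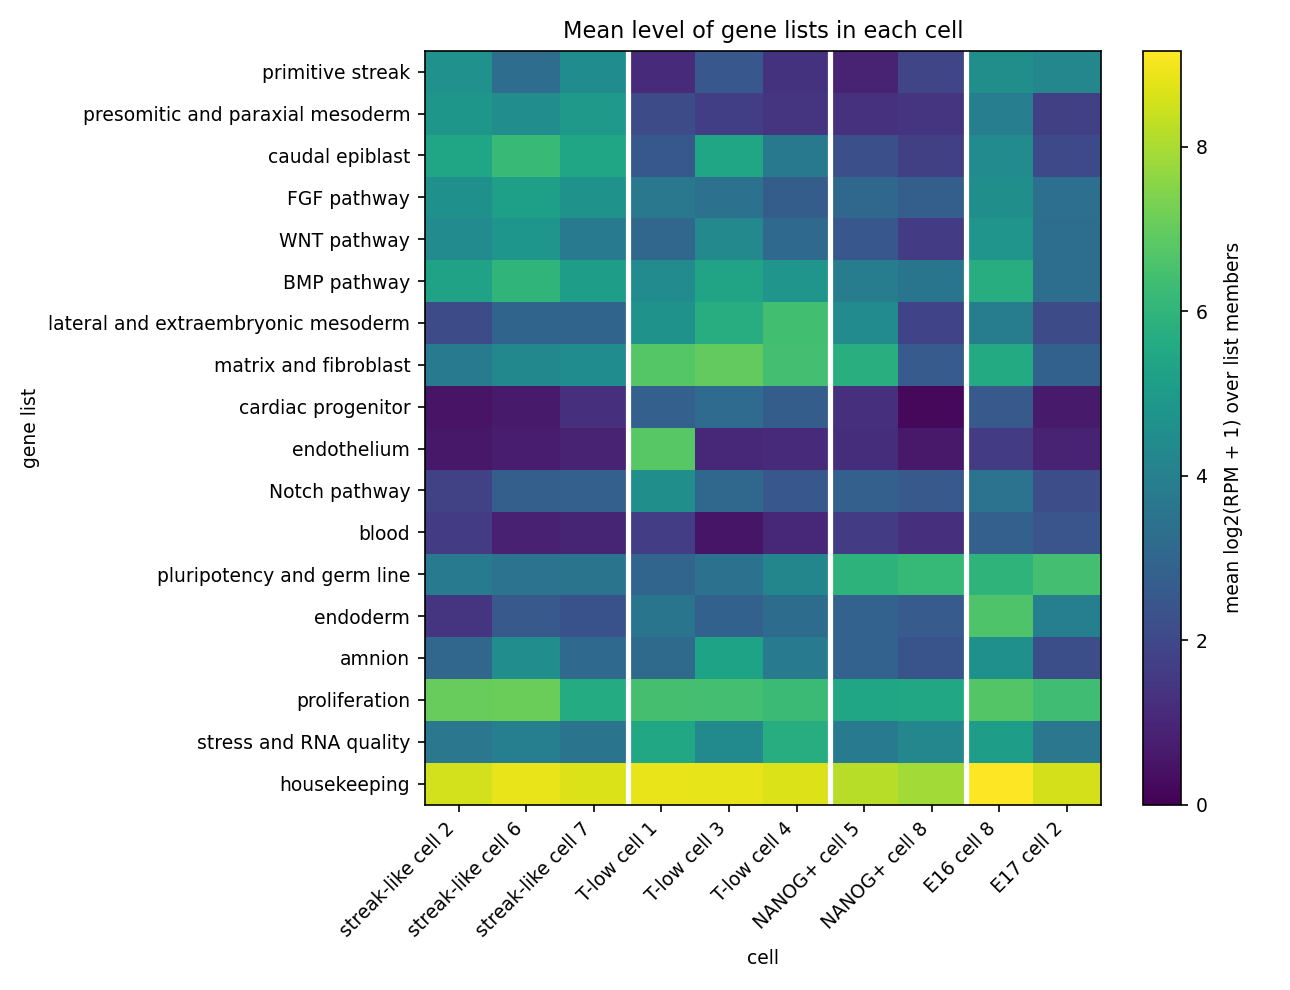
Mean log2(RPM + 1) over the members of 18 gene lists (rows) in the 3 streak-like, 3 T-low and 2 NANOG-high (NANOG+) E20 cells and in E16 cell 8 and E17 cell 2. The presomitic list is at 4.51 to 4.97 in the streak-like cells and at 1.42 to 2.14 in the T-low cells, the matrix list at 3.77 to 4.44 in the streak-like cells and at 6.41 to 6.96 in the T-low cells, and the endothelium list is at 6.78 in T-low cell 1.

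T-low cell 1 was endothelial-like. CDH5 (VE-cadherin, the adhesion molecule of endothelial junctions, gene 102134170 on chromosome 20) was measured at 0.739, 0.681 and 0 RPM in the streak-like cells, against 1202, 0 and 0 RPM in the T-low cells. In cell 1 that was 1749 reads, with an exact Poisson interval (95%, counting error only) of 1146 to 1260 RPM. Of the 35 endothelium genes, 2, 2 and 3 reached 15 RPM in the streak-like cells, against 32, 5 and 5 in the T-low cells. The mean of the list was 0.58, 0.72 and 0.87 in the streak-like cells, against 6.78, 1.04 and 1.14 in the T-low cells. Cell 1 held 57 genes at 100 RPM or more and at least 8-fold over each of the other 5 cells, of which 13 were on the endothelium list.

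Junction and surface genes were prominent in cell 1. ESAM and CLDN5, junction molecules, stood at 674 and 195 RPM there, and PECAM1 and CD34 at 317 and 636 RPM. The highest level of these 4 genes in any other cell of the 6 was 12.1 RPM, for ESAM in T-low cell 3. The transcription factors SOX18 and MEF2C were at 196 and 217 RPM in cell 1. SOX18 and MEF2C had no read in the other 5. FLI1 stood at 117, 0 and 0 RPM in the streak-like cells, against 487, 0 and 12.03 RPM in the T-low cells, and SOX7 at 2.22, 0 and 58.8 RPM in the streak-like cells, against 319.6, 1.28 and 0.752 RPM in the T-low cells. RNASE1, a ribonuclease that endothelium secretes, was second to CDH5 among the genes set apart in cell 1, at 962 RPM against at most 0.681 RPM.

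Receptors of the vessel wall were shared more widely. KDR, the main VEGF receptor, was measured at 106, 40.2 and 277 RPM in the streak-like cells, against 598, 27.5 and 45.9 RPM in the T-low cells, so every cell held it and streak-like cell 7 held more than T-low cells 3 and 4. TEK, the angiopoietin receptor, was the endothelium gene that was lower in streak-like cells as a set, with 0, 1.36 and 4.66 RPM in the streak-like cells, against 178, 159 and 246 RPM in the T-low cells. FLT1, another VEGF receptor, stood at 0, 0 and 63.4 RPM in the streak-like cells, against 205, 62.01 and 57.9 RPM in the T-low cells. The other 22 measured endothelium genes overlapped between the sets, and cells 3 and 4 lacked most of them.

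Cell 1 was also high in VIM (vimentin), with 666, 36.8 and 675 RPM in the streak-like cells, against 7464, 469 and 1769 RPM in the T-low cells. In the Notch pathway, 2 of 12 measured genes (16.7%) were lower in streak-like cells, NOTCH2 and HES1, beside 8.22% of all measured genes. HES1, a target, stood at 0.739, 2.04 and 0.933 RPM in the streak-like cells, against 123, 25.6 and 63.2 RPM in the T-low cells. NOTCH4, the endothelial receptor, was at 0, 12.9 and 0 RPM in the streak-like cells, against 102, 0 and 0 RPM in the T-low cells. Few blood genes were seen: in each of the 6 cells 1 gene of the blood list, not always the same, reached 15 RPM. The list summed to 172, 61.3 and 28.0 RPM in the streak-like cells, against 272, 16.6 and 46.6 RPM in the T-low cells. TAL1, the factor of blood and vessel progenitors, stood at 10.3 RPM in cell 1 with no read in the other 5, and LMO2, its partner, at 0, 0 and 1.87 RPM in the streak-like cells, against 250.2, 0 and 34.6 RPM in the T-low cells. GATA1, RUNX1, SPI1, PTPRC, HBZ and HBE1 had no read in any of the 6 cells. ETV2, which acts early in vessel progenitors, had no read either, and POU5F1 was at 11.7 RPM in cell 1, its lowest level of the 6.

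**Figure D5:**
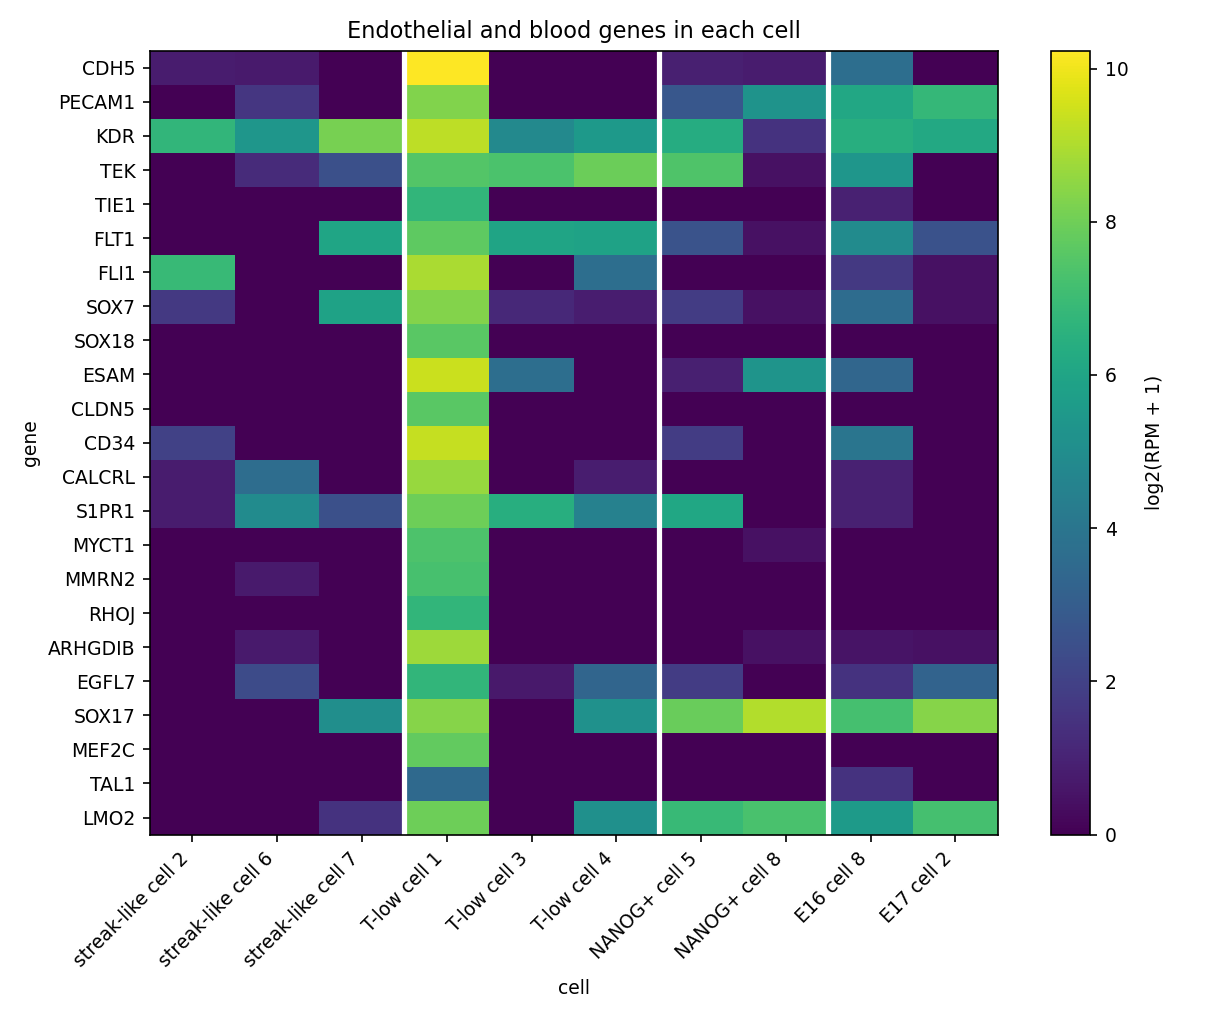
Levels of 23 endothelial and blood genes (rows) in the 3 streak-like, 3 T-low and 2 NANOG-high (NANOG+) E20 cells and in E16 cell 8 and E17 cell 2, as colour on a log2(RPM + 1) scale. T-low cell 1 is bright for nearly all of them, while KDR is present in all 6 cells and TEK in all 3 T-low cells.

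T-low cells 3 and 4 shared the mesenchymal genes but differed in what else they held. Cell 3 had the highest COL1A1 and COL3A1 of the 6 and the highest T, CDX4, EVX1 and AXIN2 of the T-low set, with T at 194, CDX4 at 167, EVX1 at 160.4 and AXIN2 at 279 RPM. The claudin CLDN10 was measured at 129.8 RPM in cell 3, against at most 0.933 RPM in the other 5, and F3 (tissue factor) at 107 RPM, against at most 11.2 RPM. Of the 22 amnion genes with a read, 17 reached 15 RPM in cell 3, the highest number of the 6 cells. Over all genes, 7545 reached 15 RPM in cell 3, against 7658 in cell 1 and 7114 in cell 4.

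Cell 4 had the highest HAND1, HAND2 and GATA4. GATA4, a zinc finger factor of lateral mesoderm and endoderm, stood at 2.96, 0 and 4.66 RPM in the streak-like cells, against 13.7, 59.4 and 187 RPM in the T-low cells. It also held STC1 (stanniocalcin 1), a secreted glycoprotein, at 317 RPM, against at most 15.8 RPM in the other 5 cells, and SOX15, a SOX factor, at 71.5 RPM. Like cells 5 and 8, which were left out for it, cell 4 had NANOG, at 124, 534 and 566 RPM in cells 4, 5 and 8.

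Pluripotency genes did not part the sets as a group: 2 of 16 measured were higher, ZIC2 among them, and 1 was lower. POU5F1 (OCT4), the core pluripotency factor, was at 1200.5, 502 and 560.5 RPM in the streak-like cells, against 11.7, 566 and 500.2 RPM in the T-low cells. It was retained in every cell of the 6 except the endothelial-like one. LIN28A, an RNA-binding protein of early embryos, stood at 824, 951 and 584 RPM in the streak-like cells, against 241, 969 and 587 RPM in the T-low cells. The lower gene was CXCR4, a chemokine receptor, with 0, 0 and 3.73 RPM in the streak-like cells, against 13.7, 113 and 342 RPM in the T-low cells. The germ cell genes NANOS3, TFAP2C and PRDM14 were under 6 RPM in every streak-like cell, and TFAP2C and NANOS3 reached 31.96 and 19.2 RPM in T-low cell 3.

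Of the lists of other lineages, the amnion, trophoblast and ectoderm lists overlapped between the sets. Within the streak-like set cell 6 was highest in amnion genes, with list means of 3.04, 4.49 and 3.15 in the streak-like cells, against 3.16, 5.31 and 3.82 in the T-low cells. It was also the highest of the 6 in trophoblast genes, with 1.73, 3.79 and 1.99 in the streak-like cells, against 2.22, 3.26 and 2.39 in the T-low cells. Cell 2 was the highest of the 6 in neural and surface ectoderm genes, with 3.14, 1.62 and 1.90 in the streak-like cells, against 1.22, 3.06 and 0.70 in the T-low cells. In the endoderm list 4 of 13 measured genes (30.8%) were lower and 0 higher. The 4 were genes shared with mesoderm (GATA4, COL4A1, LAMA1 and CXCR4). FOXA2, the factor of definitive endoderm, was at most 2.22 RPM in any of the 6 cells, and SOX17 was measured at 0, 0 and 32.6 RPM in the streak-like cells, against 331, 0 and 35.4 RPM in the T-low cells. The amnion list gave 0 higher and 1 lower (IGFBP3) of 14, the trophoblast list 0 and 1 (PGF) of 8, and the neural and surface ectoderm list 0 and 0 of 6. PAX6 and SOX1, neural factors, had no read in any of the 6 cells. For housekeeping genes the counts were 0 and 0 of 13, with a median difference of 0.03 that became -0.14 under scaling to an equal median. In the stress list, 4 of 18 measured genes (22.2%) were lower (FOS, JUND, ATF3 and HSPH1) and 0 higher.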

How the data were processed

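Single cell transcripts were read by SC3-seq in 34 cells, of which 8 came from E20 embryos. The authors deposited 1 table on a log2 scale, log2(RPM + 1), where RPM stands for reads scaled by library depth. The submitters' processing notes name cutadapt 1.3, TopHat 1.4.1 and Cufflinks 2.2.0 without giving their roles. The genome build is not given in the sources used here. Values were back-transformed to RPM, and columns of the 6 cells summed to between 992085 and 994632. Reads were recovered from the commonest low value of each column, taken as 1 read. Between 99.8% and 99.9% of values at low read counts were whole within 0.1 read, at 1072324 to 1564392 reads per cell. Reads carry no molecular identifiers, so intervals and limits from 3 reads cover counting error only.

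The table holds 28551 genes, 17683 with a human symbol, by which genes are named. Of 559 genes on 24 lists, 532 were found, 13 of them by monkey symbol. A difference is the mean log2(RPM + 1) of the 3 streak-like cells minus that of the 3 T-low cells, and folds are ratios of mean RPM. Where a set had no read, the fold sets the pooled reads of the other set against 3 reads. No test was run, since a sample holds a single cell and the labels name no animal. The members and the lists were chosen with earlier results of these data known. Named genes are list members, the 15 with the largest difference in each direction (the higher set averaging 50 RPM or more with 15 RPM in each of its cells), and for each cell the 10 at 100 RPM or more with the largest ratio, of at least 8-fold, over the highest of the other 5 cells.

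Alternatives changed the pseudocount of 1 RPM to 10, the filter on low values, the size of the difference, the scaling, the depth, the use of medians, the limits on T and NANOG and the cells included, 1 at a time. The procedure was tested on simulated data. Promoter motifs were planned and not run, and no sequence was used here. Values of some named genes are not reported here. Python 3.11.15, numpy 2.4.6, pandas 2.3.3, scipy 1.17.1 and matplotlib 3.10.9 were used.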

Additional observations from a re-analysis of the deposited data

Results flagged for a closer look

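Single E20 cells were screened for values far from the other 7 in 29 genes and list means, at both ends with Dixon's criterion at 95%, which sets the distance from the extreme cell to its neighbour against the range of the 8. Chance flags about 1 in 20 groups that were chosen without regard to their values. These genes and lists were chosen with earlier results of the data known, and CDH5 is on the endothelium list. The flags are therefore a description. Of 58 values 4 passed, and 3 of them belong to T-low cell 1. CDH5 stood at 10.23 on the log2(RPM + 1) scale in that cell, the highest of the 8. The mean of the endothelium list was 6.78 there, and the mean of the Notch pathway list, which includes NOTCH4 and MFNG, was 4.58. The other was HAND1 at 1.84 in NANOG-high cell 8, the lowest of the 8, so it lies outside both sets.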

How the results depend on the processing

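No paired analysis was possible because each sample is 1 cell and nothing in the labels links cells of the 2 sets. A T limit of 500 RPM chose the same cells, and one of 2000 RPM moved cell 6 to the T-low set. With that, 269 genes were higher and 1103 lower, of which 73 and 269 were among the 216 higher and 755 lower genes of the reported sets. The number of higher genes, 216, was 393 with a difference of at least 1, 120 with a mean of at least 50 RPM, 116 with a pseudocount of 10 RPM, 532 with no condition on overlap (added after seeing the data) and 223 to 486 without 1 cell. The number of lower genes, 755, was 247 with NANOG not used, 148 with a mean of at least 50 RPM, 305 with a pseudocount of 10 RPM, 1766 with no condition on overlap and 860 to 1530 without 1 cell. Of the calls, 22.2% were higher genes, against 44.8% with a mean of at least 50 RPM, 44.0% with NANOG not used and 16.3% with cells scaled to an equal median.

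List medians kept their direction for the streak, presomitic, caudal epiblast, FGF, lateral and matrix lists under every alternative. This is a description and lends the lists no support, because the lists were chosen with earlier results of the data known. The streak list here includes T, which chose the cells, and its median without T was not taken through the alternatives. The streak median of 3.52 was 4.94 with T at 2000 RPM, 6.11 with a mean of at least 50 RPM, 2.05 with a pseudocount of 10 RPM and 2.90 to 4.90 without 1 cell. The presomitic median of 3.20 was 2.71 with T at 2000 RPM, 5.47 with a mean of at least 50 RPM, 4.15 with medians over cells, 2.31 with no filter, 1.71 with a pseudocount of 10 RPM and 2.95 to 3.75 without 1 cell. The caudal epiblast median of 1.83 was 3.26 with NANOG not used, 0.52 with T at 2000 RPM, 1.15 with no filter, 1.22 with a pseudocount of 10 RPM and 0.91 to 3.18 without 1 cell. The FGF median of 1.29 was 1.69 with NANOG not used, 1.80 with medians over cells and 1.25 to 2.02 without 1 cell. The lateral median of -4.20 was -3.35 with T at 2000 RPM, -2.40 with a pseudocount of 10 RPM and -4.80 to -3.40 without 1 cell. The matrix median of -2.97 was -2.19 with NANOG not used, -2.62 with T at 2000 RPM, -3.72 with a mean of at least 50 RPM, -2.57 with a pseudocount of 10 RPM and -3.50 to -2.69 without 1 cell. The HOX median of -0.40 changed sign, to 0.28 with NANOG not used, 3.96 with a mean of at least 50 RPM and 0.05 with a pseudocount of 10 RPM, and was -2.25 with T at 2000 RPM and -2.17 to -0.025 without 1 cell.

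The CDH5 difference of -2.90 reversed to 0.75 with medians over cells and 0.52 without cell 1, the cell that carries it, in a range of -4.60 to 0.52 without 1 cell. HAND1, at -1.63, reversed to 0.046 with NANOG not used, which adds cell 8 with few HAND1 reads. The stress list, at -1.56, reversed to 0.26 with a mean of at least 50 RPM, which leaves out its low genes. The endothelium median of -2.44 was 0 with medians over cells, -1.57 with NANOG not used, -1.38 with a pseudocount of 10 RPM and -3.62 to -1.13 without 1 cell. Depth limits levels near 1 RPM, which rest on 1 or 2 reads.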
